A study of Homo sapiens and Mus musculus with 24 samples.

Results

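Messenger RNAs of 10 proteins that hepatocytes secrete into blood plasma were followed in HepG2 cells before and after UV irradiation. These genes are ALB, AFP, TTR, TF, SERPINA1, FGA, FGB, FGG, AHSG and F2. They were taken by name as well-known products of the liver, with earlier results of these data known. They were matched by Ensembl identifier through GENCODE, and they make up 10 of the 58381 human genes in the count files. All 10 were above the filter on low counts in HepG2.

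In UPA-seq, RNA is sequenced from cells that were or were not exposed to short-wave UV, which forms covalent bonds between RNA and protein. RNA bound to protein in this way is held back from the aqueous phase on phenol-chloroform extraction. The study also proposes that such bonds interfere with reverse transcription, and these effects were not told apart here. HepG2, a human hepatocellular carcinoma line, was UV-irradiated or left nonirradiated in 3 replicates each, and the human embryonic kidney line HEK293 in 3 and 3 served for comparison. Lysates in TRIzol were heated before extraction, ribosomal RNA was removed with Ribo-Zero, and TruSeq libraries were made. HEK293 is the name in the sample labels, whereas the culture methods of the study name HEK293T, and HepG2 libraries were run on another sequencer model than those of HEK293. Both are single established lines. The study calls its read fold changes biological triplicates, and the labels do not say from which cultures the replicates came, so that the p-values below measure the spread between these samples.

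Hepatocytes synthesize most proteins of the plasma. Their mRNAs encode a signal peptide, are translated at the membrane of the endoplasmic reticulum (ER), and the proteins leave the cell through the Golgi apparatus. HepG2 cells are a standard model of this secretion, and AFP, the fetal counterpart of albumin, is a known tumor marker that they make in large amounts.

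The HepG2 libraries held 36573473 to 53511592 counts on genes. Of 13 hepatocyte markers, 11 averaged at least 1 CPM (a count set to one common library total) in both HepG2 groups, with CYP3A4 and TM4SF4 below. Their summed level was 29003 to 30695 CPM in nonirradiated and 11456 to 11637 CPM in UV-irradiated libraries, and APOB, the structural protein of low density lipoprotein, took the largest part of it with 25849 and 4562 CPM. The fibroblast markers COL1A2, DCN and LUM and the macrophage marker MARCO were at 0 counts in all 6 HepG2 libraries. Markers of fibroblasts or stellate cells summed to 15.9 to 34.7 CPM, nearly all from PDGFRB, those of endothelial cells to 2.37 to 16.2 CPM, and those of macrophages to at most 32.3 CPM, mostly from CD68. Nonirradiated replicate 1 stood apart from the other two: 13.3% of its counts came from the mitochondrial genome, against 8.16% and 8.58%, while the irradiated libraries had 20.4% to 21.0%. The main results that rest on this library are also given without it. Fold changes and tests of single genes include it unless stated, and its part in them was not tested further.

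The 5′ ends of 3 coding sequences are shown, because these genes bound the range of the UV effect among the 10 and differ in base composition. They are the first 60 coding bases of the MANE Select transcripts of GENCODE 44 (hg38), with the start codon in capitals and T for U. The signal peptide begins with these bases, and its end is not marked. With all libraries, TTR had the highest log2 fold change of the 10 upon UV irradiation, AFP and FGA the lowest.
TTR: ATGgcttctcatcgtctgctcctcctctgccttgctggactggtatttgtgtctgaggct
AFP: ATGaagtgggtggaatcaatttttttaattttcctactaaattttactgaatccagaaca
FGA: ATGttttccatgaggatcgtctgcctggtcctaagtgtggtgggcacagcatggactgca
U made up 23 of these 60 bases in TTR and in AFP and 17 in FGA.

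The first question was how the level of each plasma protein mRNA among the sequenced RNAs changed upon UV irradiation. All 10 mRNAs rose relative to the bulk of the genes, and none fell. The background is wide: of 20117 genes tested, 38.1% were increased and 40.7% decreased at an adjusted p under 0.05 (edgeR), 78.8% in all, and of the protein-coding genes 45.9% and 34.2%. The median log2 fold change of the 10 was 1.28, against −0.08 over all genes tested and 0.17 over the 13735 protein-coding genes tested. These values depend on the scaling in their sign: TMM normalization, which takes the bulk of the genes as unchanged, multiplied library sizes by 1.54 to 1.59 in nonirradiated and by 0.619 to 0.655 in irradiated libraries. With library size alone, only 3 of the 10 were increased and 2 decreased, beside 8.62% and 78.7% of all genes tested, and the medians became −0.03 for the 10 and −1.38 for all genes. The distance between the 10 and all genes was nearly the same on both scales, 1.36 and 1.35 on the log2 scale. A scaling shifts all genes alike, so this distance could hardly differ between the scales. With other sets of genes tested it was 1.01 (at least 10 counts in every sample), 1.12 (protein-coding genes only) and 1.88 (no filter). Without nonirradiated replicate 1 it was 1.16, and all 10 were still increased, each with a smaller log2 fold change. These ran from 0.49 for AFP to 1.83 for SERPINA1. All levels given below as normalized CPM are scaled by TMM.

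**Figure D1:**
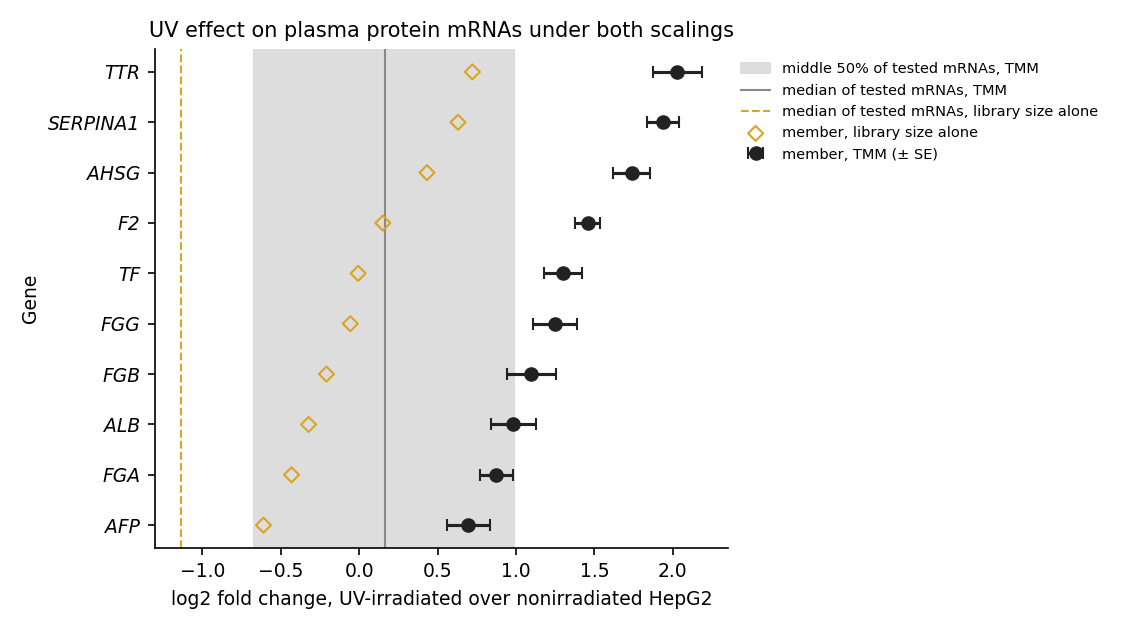
The log2 fold change of UV-irradiated over nonirradiated HepG2 cells (x axis) is plotted for each plasma protein gene (y axis), as black points with bars of ± 1 SE for TMM and as open diamonds for library size alone, beside the median (gray line) and middle 50% (gray band) of the tested mRNAs. All black points lie between 0.70 and 2.03, and the diamonds between −0.61 and 0.72, to the right of the dashed mRNA median for library size alone at −1.14.

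Among the carriers, ALB encodes serum albumin, the main carrier of fatty acids and the most abundant plasma protein. It lies on chromosome 4 of hg38 from 73397114 to 73421412, and had 7026, 9604 and 9487 normalized CPM in the nonirradiated and 17334, 16945 and 17384 in the irradiated libraries. Nonirradiated replicate 1 was the lowest, and the groups did not overlap. The same held for all 10 genes on this scale, on which 39.6% of all genes tested were higher and 42.8% lower in every irradiated library. ALB thus rose 1.98-fold relative to the bulk of the genes (log2 fold change 0.98, SE 0.15, adjusted p = 0.00024, edgeR), whereas with library size alone its log2 fold change was −0.32 (adjusted p = 0.0698).

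AFP, alpha-fetoprotein, lies downstream of ALB on chromosome 4 (73431138 to 73456174), and is its relative by duplication. Its normalized CPM was 2927, 4010 and 3932 without and 5912, 5778 and 5923 with irradiation. The increase was the smallest of the 10, a log2 fold change of 0.70 (SE 0.14, adjusted p = 0.00125, edgeR), and with library size alone AFP was decreased, at −0.61 (adjusted p = 0.00295).

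TTR, transthyretin, which carries thyroxine and, with retinol binding protein, vitamin A, is on chromosome 18 from 31591726 to 31599021. It had 71.7, 112 and 108 normalized CPM in nonirradiated and 397, 404 and 389 in irradiated libraries. The lowest irradiated value was thus more than 3 times the highest nonirradiated one. TTR had the largest change of the 10, 4.08-fold (log2 fold change 2.03, SE 0.16, adjusted p = 3.48e-06, edgeR), and it was increased with library size alone as well, at 0.72 (adjusted p = 0.00203). Without nonirradiated replicate 1 its log2 fold change with TMM was 1.78, below the 1.83 of SERPINA1.

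TF, transferrin, the iron carrier of plasma, is on chromosome 3 from 133745956 to 133796640. Normalized CPM was 2204, 2768 and 2764 in nonirradiated and 6494, 6251 and 6304 in irradiated libraries. Its log2 fold change was 1.30 (SE 0.12, adjusted p = 1.09e-05, edgeR), but −0.01 with library size alone (adjusted p = 0.96). TF was the sole member to share exon bases with other genes in the annotation used for counting, 191 with the transcribed pseudogene INHCAP and 112 with SRPRB, which encodes a subunit of the receptor for the signal recognition particle. Reads in such bases were counted for both genes. INHCAP had 13067 to 26112 counts and a log2 fold change of 1.38, and SRPRB 1383 to 2954 counts and 0.95, against 124188 to 235735 counts of TF, and how the reads in these bases divide between the genes was not tested.

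The 2 genes of inhibitor type were among the 3 with the largest changes, and both were also increased with library size alone. SERPINA1 encodes alpha-1 antitrypsin, the inhibitor of neutrophil elastase, on chromosome 14 from 94376747 to 94390693. It had 2078, 2263 and 2189 normalized CPM without and 8524, 8383 and 8087 with irradiation. The nonirradiated replicates were closer together than for ALB, and replicate 1 was again the lowest. SERPINA1 rose 3.83-fold (log2 fold change 1.94, SE 0.10, adjusted p = 4.73e-07, edgeR), and 0.63 on the log2 scale with library size alone (adjusted p = 0.000246). AHSG encodes fetuin-A, which keeps calcium phosphate in solution, on chromosome 3 from 186612923 to 186621318. Its normalized CPM went from 1883, 2349 and 2322 to 7307, 7357 and 7216. The log2 fold change was 1.74 (SE 0.12, adjusted p = 1.74e-06, edgeR), and 0.43 with library size alone (adjusted p = 0.00818).

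The members FGA, FGB, FGG and F2 serve blood clotting. The first 3 encode the alpha, beta and gamma chains of fibrinogen, which are assembled into one protein in the ER and lie side by side on chromosome 4 (FGB from 154562956 to 154571086, FGA from 154583126 to 154590766 and FGG from 154604134 to 154612967). F2 encodes prothrombin, whose active form thrombin cleaves fibrinogen, and is on chromosome 11 from 46719180 to 46739506. FGA had 433, 553 and 547 normalized CPM in nonirradiated and 943, 921 and 948 in irradiated libraries. FGB had 86.8, 135 and 138 against 252, 257 and 262. FGG had 244, 354 and 355 against 756, 752 and 760. In each of the 3 chains nonirradiated replicate 1 was well below the other two, and every irradiated library was above. The chains rose by log2 fold changes of 0.87 (SE 0.11, adjusted p = 6.63e-05, edgeR) for FGA, 1.10 (SE 0.16, adjusted p = 0.000204) for FGB and 1.25 (SE 0.14, adjusted p = 3.98e-05) for FGG, while with library size alone they were at −0.43 (adjusted p = 0.00644, a decrease), −0.21 (adjusted p = 0.261) and −0.06 (adjusted p = 0.725). F2 had 259, 293 and 292 normalized CPM without and 786, 772 and 758 with irradiation. Its log2 fold change of 1.46 had the smallest error of the 10 (SE 0.08, adjusted p = 6.49e-07, edgeR), and fell to 0.15 with library size alone (adjusted p = 0.139).

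The share of a gene in all gene counts of a library uses no scaling factor, and gives the part of the gene counts that each mRNA made up. This total counts a read in several genes once for each: RN7SL1 and ENSG00000283029, for example, each had 1.58% of the counts in nonirradiated and 4.29% in irradiated libraries. The 10 mRNAs together took 2.65%, 3.57% and 3.50% of the counts in nonirradiated and 3.02%, 3.04% and 3.15% in irradiated HepG2 libraries. The irradiated values lay between those of nonirradiated replicate 1 and of the other two, and the means of 3.24% ± 0.51 and 3.07% ± 0.07 (SD, n = 3) did not differ beyond the spread (exact permutation test, two-sided, p = 0.6). Without nonirradiated replicate 1 the nonirradiated mean was 3.54%, above every irradiated library. With 3 samples against 3 this exact test cannot give a p below 0.1, and the 11 p-values of this family were at least 0.183 after Benjamini-Hochberg adjustment.

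Beneath this similar sum the members moved apart. The shares of TTR, SERPINA1, AHSG and F2 were higher in every irradiated than in every nonirradiated library, those of AFP and FGA were lower in every one, and those of ALB, TF, FGB and FGG overlapped. Over all genes tested, 9.95% were higher and 79.1% lower in every irradiated library. SERPINA1 went from 0.342% ± 0.020 to 0.530% ± 0.002 (SD, n = 3), AHSG from 0.344% ± 0.047 to 0.464% ± 0.010, TTR from 0.0153% ± 0.0037 to 0.0252% ± 0.0006 and F2 from 0.0442% ± 0.0038 to 0.0491% ± 0.0005. AFP went from 0.571% ± 0.104 to 0.374% ± 0.0125, and FGA from 0.0805% ± 0.0119 to 0.0596% ± 0.0021. ALB had 1.37% ± 0.25 and 1.10% ± 0.04, of which the nonirradiated value of replicate 1, 1.08%, lay among the irradiated ones. Each of the 6 shares without overlap had the smallest possible p of 0.1 in the exact permutation test. Without nonirradiated replicate 1, no member overlapped: the same 4 were higher and the other 6 lower in every irradiated library, beside 10.4% and 83.7% of all genes tested.

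**Figure D2:**
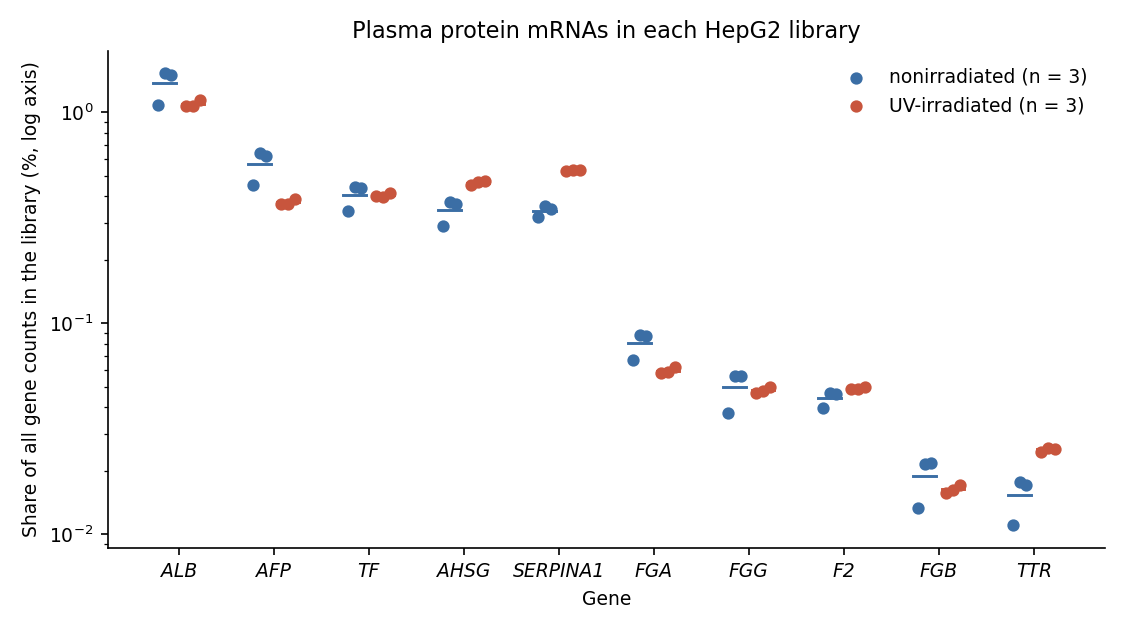
The share of all gene counts in percent (log y axis) is plotted for each plasma protein gene (x axis) in the 3 nonirradiated (blue) and 3 UV-irradiated (red) HepG2 libraries, with group means as lines. The leftmost blue point of each gene, nonirradiated replicate 1, is the lowest of its group, and the red points lie above all blue points for TTR, SERPINA1, AHSG and F2 and below them for AFP and FGA.

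What the total holds also changed: protein-coding genes of the nuclear genome took 75.9% ± 3.0 of the counts in nonirradiated and 52.9% ± 0.6 in irradiated libraries (SD, n = 3). Within these protein-coding counts, the 10 mRNAs rose from 4.26% ± 0.52 to 5.80% ± 0.06 (SD, n = 3), higher in every irradiated library (exact permutation test, p = 0.1, the smallest possible). On this denominator 8 members were higher in every irradiated library and none was lower, whereas AFP and FGA overlapped. Of the nuclear protein-coding genes tested, 25.3% were higher and 62.1% lower in every irradiated library.

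Compared per length, as counts per kilobase of exon and scaled to the library total (RPKM), ALB was the most abundant of the 10 in both groups, with 4060 ± 741 RPKM without and 3245 ± 110 with irradiation (SD, n = 3). AFP with 1751 ± 319 RPKM and AHSG with 1461 ± 198 overlapped in the nonirradiated group, in which SERPINA1 followed with 698 ± 41. In the irradiated group AHSG, with 1972 ± 44 RPKM, was above AFP, with 1147 ± 38, and SERPINA1, with 1081 ± 4, came close to AFP without overlap. The next 4 genes of the nonirradiated group, FGA (203 ± 30), F2 (174 ± 15), TF (155 ± 22) and FGG (139 ± 30), each overlapped with its neighbor in this order. These overlaps, and that of AFP and AHSG, came from nonirradiated replicate 1, which was the lowest library for all 10. In the other two libraries AFP (1910 and 1959) was above AHSG (1562 and 1589), and FGA (219 and 222), F2 (182 and 183), TF (167 and 168) and FGG (156 in both) did not overlap. Within replicate 1 itself the order was the same. Upon UV irradiation F2, at 193 ± 2, was above the other 3 of these genes, and FGA (151 ± 5) and TF (154 ± 3) overlapped. TTR and FGB were the least abundant, with 70.4 ± 17.0 and 69.8 ± 17.7 RPKM in overlapping ranges without irradiation, also without replicate 1, and 116 ± 3 and 60.4 ± 2.8 with it. The places of several genes, TTR among them, depend on the length used. With the length of the MANE Select transcript, 616 bases against 2173 of exon in the files, TTR had 248 RPKM without irradiation, above TF with 201. With MANE Select lengths, irradiated SERPINA1 (1756 to 1770 RPKM) was above AFP (1509 to 1599). Irradiated FGA (264 to 281) was then above F2 (245 to 250). Without irradiation the mean of FGG (241) was above those of F2 (222) and TF (201). FGB, whose MANE Select transcript of 3641 bases is longer than its 2708 bases of exon in the files, was the lowest with either length, at 51.9 RPKM with the former. The low place of TF goes with its length, 26199 bases of exon and 20166 in the MANE Select transcript, of which 2094 are coding. By share of counts without irradiation, TF (0.406%) was above AHSG (0.344%), SERPINA1 (0.342%) and F2 (0.0442%). How much of this length the TF reads cover was not tested.

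Ratios between mRNAs of the same library do not depend on the scaling, and tell whether related mRNAs changed alike. The ratio of AFP to ALB, in counts per exon base, was 0.432, 0.433 and 0.429 in the nonirradiated and 0.353, 0.353 and 0.353 in the irradiated libraries. The replicates of a group differed by little in this ratio, nonirradiated replicate 1 included, and AFP fell against ALB by 0.29 on the log2 scale. Among the fibrinogen chains, FGA to FGB was 3.42, 2.80 and 2.71 without and 2.56, 2.45 and 2.48 with irradiation, and FGG to FGB was 2.11, 1.97 and 1.94 against 2.25, 2.20 and 2.18. The alpha chain was thus lower and the gamma chain higher against the beta chain in every irradiated library, with log2 changes of −0.25 and 0.14, which became −0.14 and 0.18 without nonirradiated replicate 1. Each of the 3 ratios had the smallest p that the exact permutation test allows, p = 0.1 before and after Benjamini-Hochberg adjustment. Over all pairs of members, 40 of 45 ratios did not overlap between the groups, beside 82.5% of all pairs of protein-coding genes tested.

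**Figure D3:**
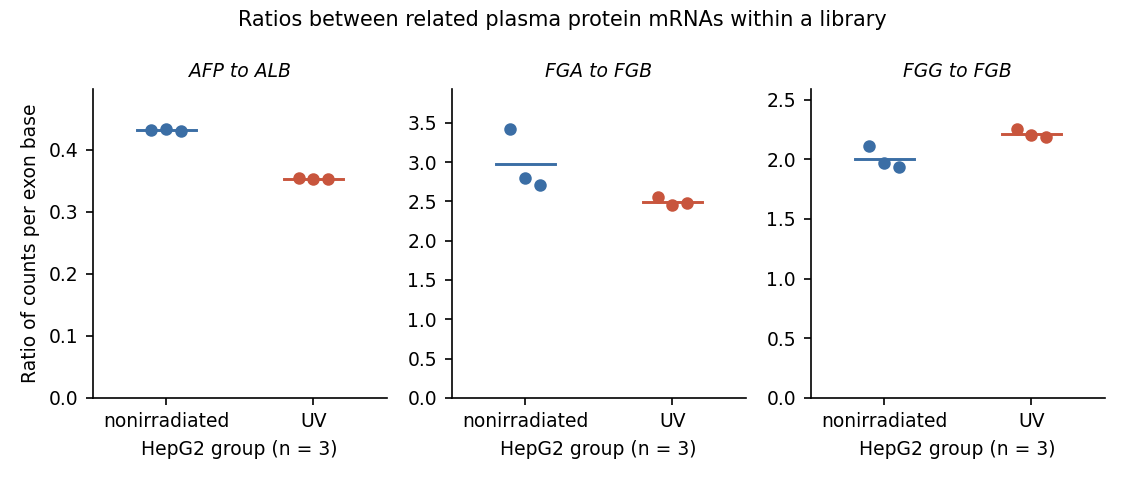
The ratio of counts per exon base (y axis, from 0) is plotted for AFP to ALB, FGA to FGB and FGG to FGB in each nonirradiated (blue) and UV-irradiated (red) HepG2 library, with the mean of each group as a line. AFP to ALB lies at 0.429 to 0.433 in blue and at 0.353 in red, and nonirradiated replicate 1 is the highest point, 3.42, for FGA to FGB.

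As parts of the sum of the 10, ALB went from 42.2% ± 1.2 to 35.7% ± 0.4 (SD, n = 3) and AFP from 17.5% ± 0.5 to 12.2% ± 0.1. SERPINA1 went from 10.7% ± 1.2 to 17.3% ± 0.4 and AHSG from 10.6% ± 0.3 to 15.1% ± 0.2. None of these 4 parts overlapped between the groups. The parts of TTR (0.467% to 0.823%), TF (12.5% to 13.2%) and F2 (1.38% to 1.60%) were also higher and that of FGA (2.48% to 1.94%) lower in every irradiated library, while FGB and FGG overlapped. For TF this order turned when ALB was left out of the sum, with a log2 ratio of −0.08 in place of 0.07. For F2 the log2 ratio was then 0.07 in place of 0.22 (exact permutation test, p = 0.4). The 8 parts without overlap had p = 0.1 in the exact permutation test and 0.125 after Benjamini-Hochberg adjustment. A part of the sum is a ratio within a library too, and 82.5% of the ratios of 2 protein-coding genes tested did not overlap. Parts of sums of other genes were not tested.

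In HEK293 the plasma protein mRNAs were at or near 0. FGB had 0 counts in all 6 libraries, which allows up to 0.268 to 0.318 CPM per library (3 counts, counting error only). ALB, FGG and F2 had at most 2 counts per library, AFP, TTR, FGA and AHSG at most 1, and SERPINA1 between 0 and 7. TF alone passed the filter, with 4, 19 and 26 counts in the nonirradiated and 1, 14 and 6 in the irradiated HEK293 libraries. These groups overlapped, and the log2 fold change of −0.60 (SE 0.72, adjusted p = 0.508, edgeR) did not pass the test. The labels name no pairs, but deviations of equally numbered HEK293 samples correlated at 0.39 to 0.672, and these samples were taken as pairs. TF was lower in the irradiated library of each of the 3 pairs. With the replicate number as a block its log2 fold change was −0.67 (SE 0.42, adjusted p = 0.152, edgeR), which did not pass either. INHCAP, which shares exon bases with TF, had 4, 13 and 12 against 4, 12 and 5 counts in these libraries, and SRPRB 502 to 805. How many of the few TF counts in HEK293 lie in the shared bases was not tested. The UV effect on TF in HepG2 exceeded that in HEK293 by 1.80 on the log2 scale (SE 0.64, adjusted p = 0.107, edgeR interaction term), which missed the threshold. With the replicate number as a block the difference was 1.88 (adjusted p = 0.0117), and without nonirradiated HEK293 replicate 1 it was 2.24 (adjusted p = 0.0193). The block was set in both lines, although the numbers did not pair the HepG2 samples. All other alternatives missed the threshold, among them the DESeq2 test (adjusted p = 0.228) and library size alone (adjusted p = 0.171, edgeR). Of 16759 genes tested in both lines, 3.1% had a larger and 4.85% a smaller effect in HepG2 without the block.

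Other plasma proteins of the liver were taken from lists of clotting, complement, and carrier and inhibitor genes. Of 63 tested, 54 were increased and 3 decreased with TMM, and their median log2 fold change was 1.03. Direction again depended on the scaling, and each value is given below with that for library size alone behind it.

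All 25 tested genes of the carriers and inhibitors were increased with TMM, with a median log2 fold change of 1.53, while with library size alone 11 were increased and 5 decreased. The largest changes were those of SAA4, a constitutive serum amyloid A of high density lipoprotein (2.12 and 0.81), AMBP, the precursor of alpha-1-microglobulin and bikunin (2.00 and 0.69), and ORM2, an acute phase glycoprotein (1.97 and 0.66). CP, the copper carrier ceruloplasmin (0.30 and −1.01), A2M, the protease trap alpha-2-macroglobulin (0.38 and −0.93), and ITIH2, a heavy chain of the inter-alpha inhibitors (0.51 and −0.80), were at the lower end.

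Of 19 tested clotting and anticlotting genes other than the members, 15 were increased and 1 decreased with TMM, with a median of 0.83, and 2 and 12 with library size alone. F10, the factor that activates prothrombin (1.93 and 0.63), PROC, protein C, which restrains clotting (1.60 and 0.29), and F12, the starter of the contact pathway (1.48 and 0.18), rose most. F5, the cofactor of factor X, was the one that fell (−0.53 and −1.83). F11 (0.33 and −0.98), another factor of the contact pathway, and KNG1 (0.41 and −0.90), the kinin precursor, had the smallest increases with TMM.

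Of 19 tested complement genes 14 were increased and 2 decreased with TMM, with a median of 0.68, and 1 and 12 with library size alone. C8G (1.54 and 0.23) and C8B (1.14 and −0.17) encode chains of a component of the membrane attack complex, and SERPING1 (1.32 and 0.02) encodes the inhibitor of the first component. MBL2, mannose binding lectin (−1.38 and −2.68), and C5, the source of the anaphylatoxin C5a (−0.56 and −1.86), fell. C1S, a protease of the first component, had 0.42 and −0.89.

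The machinery that secreted proteins share was described in the same way. Of 29 genes for entry into the ER, 20 were increased and 4 decreased with TMM, with a median of 0.73, and 8 and 17 with library size alone. SSR4 (2.30 and 0.99), a subunit of the translocon-associated complex, OST4 (2.11 and 0.80), a small subunit of the oligosaccharyltransferase, and SEC61G (2.08 and 0.77), the smallest chain of the protein channel, rose most. SPCS3 (−0.93 and −2.24), a subunit of the signal peptidase, SEC63 (−0.70 and −2.00), which acts beside the channel, and SSR1 (−0.56 and −1.86), another subunit of the complex that holds SSR4, fell. Of 22 genes for coats and cargo receptors between the ER and the Golgi, 6 were increased and 8 decreased with TMM, with a median of −0.08, and 1 and 19 with library size alone. As given above, 45.9% of the protein-coding genes tested were increased and 34.2% decreased with TMM. With library size alone, 8.62% of all genes tested were increased and 78.7% decreased. COPE (2.26 and 0.95) and COPZ1 (1.20 and −0.11), of the COPI coat, and SEC13 (1.37 and 0.06), of the COPII coat, were at the upper end, and SEC24A (−0.93 and −2.23) and SEC23A (−0.53 and −1.84), of COPII, and ARCN1 (−0.57 and −1.88), of COPI, at the lower. All genes named from these lists were past the threshold with TMM (adjusted p at most 0.0418, edgeR), and their groups did not overlap on that scale.

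**Figure D4:**
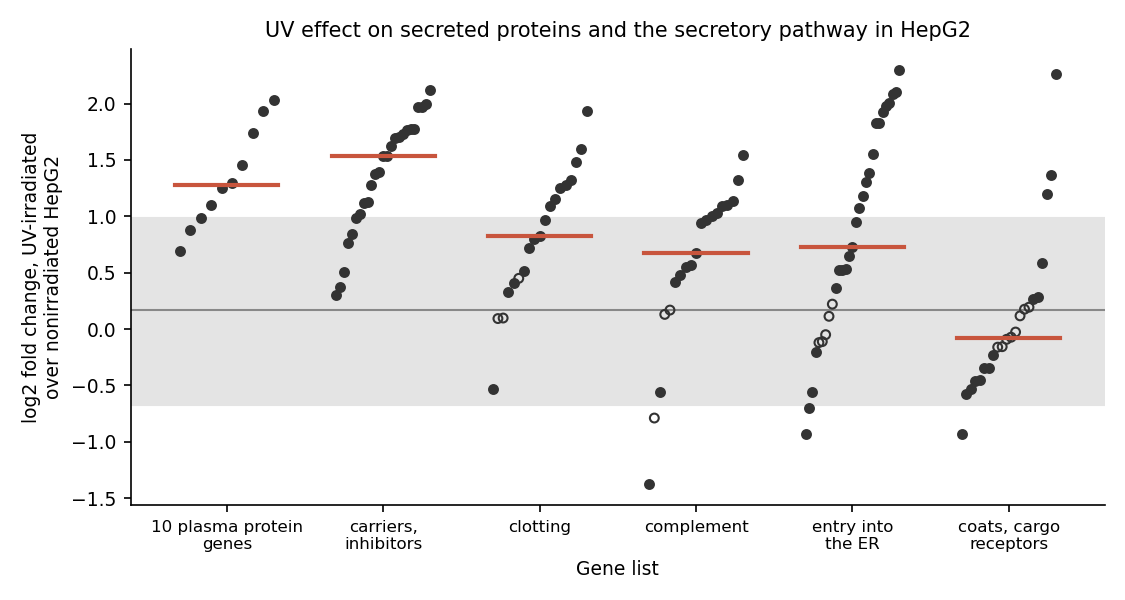
The log2 fold change of UV-irradiated over nonirradiated HepG2 cells with TMM (y axis) is plotted for each tested gene of the 10 plasma protein genes and of 5 lists (x axis), filled where the adjusted p was under 0.05, with list medians as red lines and the median and middle 50% of the tested mRNAs in gray. The median falls from 1.53 for carriers and inhibitors and 1.28 for the 10 to −0.08 for coats and cargo receptors.

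Features of the transcripts that played no part in choosing the 10 were then set beside the UV effect, as a description over genes that share the same libraries. The G+C content of the coding sequence ranked the members much as the log2 fold change with TMM did (Spearman rho 0.73, n = 10), and over the 13519 mRNAs with a GENCODE 44 transcript rho was 0.32. Of the features looked at, it had the largest rho over the members, and only the lengths had been planned. FGG, AFP and ALB had 41.5% to 43.0% G+C, and TTR, AHSG and F2 54.4% to 59.2%. Coding length went the other way, with rho of −0.60 over the members and −0.40 over the mRNAs, from the 441 bases of TTR to the 2094 of TF. Exon length in the files gave −0.30 and −0.48, and the length of the MANE Select transcript −0.39 and −0.61.

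The 3′ untranslated regions of the members had a median of 484 bases against 1267 over the mRNAs. Those of SERPINA1 (1702 bases) and FGB (2157) were above the mRNA median, and that of TF, with 18021 bases in its MANE Select transcript, was longer than that of 99.9% of the mRNAs. Their 5′ untranslated regions had a median of 44.5 bases against 135, and this length had a rho of −0.006 over the members and −0.31 over the mRNAs. Within the members the 3′ length had a rho of −0.16 with the UV effect, and −0.50 over the mRNAs. The content of U in the whole transcript had −0.47 over the members and −0.39 over the mRNAs, and that in the coding sequence −0.43 and −0.28. The share of counts without irradiation gave −0.44 over the members and 0.15 over the mRNAs. When the mRNAs were divided into 10 equal bins by coding G+C or by coding length, all 10 members lay above the median log2 fold change of their bin in either division. AFP, at 0.70, was beside bin medians of −0.27 for G+C and 0.05 for length, and TTR, at 2.03, beside 0.20 and 1.32.

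**Figure D5:**
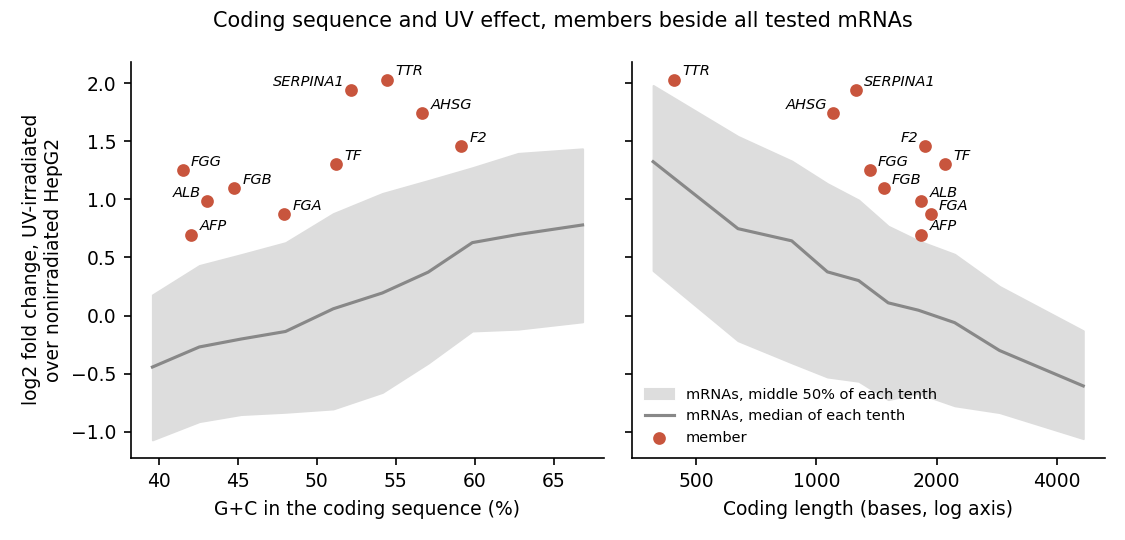
The log2 fold change with TMM (y axis) is plotted against the G+C content of the coding sequence in percent (left) and the coding length in bases (right, log axis) for the 10 members (red) and, in gray, as the median and middle 50% of the tested mRNAs in 10 equal bins. Every red point lies above the gray median line, which runs from −0.44 to 0.78 with G+C and from 1.32 to −0.60 with length.

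Of the genes outside the list, APOH, AGT, ADH4, HGD and CCL16 had profiles most like the mean of the 10 over the 12 human libraries (Pearson r of log2 normalized CPM at least 0.9998). All 5 had at most 1 count in each HEK293 library, and 612 of 20107 genes compared had r above 0.99. Their log2 fold changes in HepG2 with TMM were 1.53 for APOH, a phospholipid-binding plasma protein, 1.28 for AGT, angiotensinogen, 0.71 for ADH4, an alcohol dehydrogenase, 0.80 for HGD, an enzyme of tyrosine breakdown, and 0.68 for CCL16, a chemokine (edgeR, adjusted p at most 0.000137).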

How the data were processed

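RNA of 24 samples was sequenced, of which the 12 of HepG2 and HEK293 were used here. The mouse samples have no part in these comparisons and were not used here. The values deposited by the authors are raw counts per gene: reads mapped to hg38 with TopHat2 2.1.1 (per the submitters' processing notes) were counted on GENCODE 28 exons with featureCounts (1.5.3 for HepG2, 1.6.1 for HEK293, per the file headers). A read over more than 1 gene counted for every such gene, and no strand option is named. The labels name a stranded mRNA kit, the methods of the study another TruSeq kit.

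Genes averaging at least 0.5 CPM in nonirradiated samples were tested with edgeR 4.0.16 under R 4.3.3, using TMM factors, the quasi-likelihood F test and Benjamini-Hochberg adjustment over all genes tested. The threshold was an adjusted p of 0.05, and the SE is the log2 fold change over the square root of F. Shares and ratios were compared by two-sided exact permutation tests in Python 3.11.15 with scipy 1.17.1. Gene classes and transcript lengths came from GENCODE 44, which matched 57799 of 58381 genes. The fits were tested on simulated counts with 200 changed genes, as many raised as lowered. This does not test the scaling where, as here, 78.8% of the genes tested were called. Total counts of 36573473 to 53511592 per HepG2 library leave the spread between replicates, not counting error, as the main error of the members.

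The 10 genes and the lists were chosen with earlier results of these data known. Named were the members, the genes sharing exon bases with them, and in each list the 3 called genes with the largest and the 3 with the smallest log2 fold change among those without overlap, as well as the 5 genes with the highest Pearson r to the members' mean profile of log2(normalized CPM + 0.5). Alternatives were DESeq2 (1.42.0) size factors and test, library size alone, TMM over protein-coding genes, no filter, at least 10 counts in every sample, the replicate number as a block, and leaving out each sample. Other denominators were tried for the shares, and MANE Select lengths for the lengths. Deviations from the group means of equally numbered HepG2 samples correlated at −0.024 to 0.007 and did not pair them, whereas in HEK293 they correlated at 0.39 to 0.672, all over 0.1, so there the numbers were taken to pair the samples.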

Additional observations from a re-analysis of the deposited data

Results flagged for a closer look

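The UV effect on TF differed between the lines when the replicate number was used as a block: it was 1.88 larger on the log2 scale in HepG2 than in HEK293 (adjusted p = 0.0117, edgeR interaction term). This block was set in both lines, although the replicate numbers did not pair the HepG2 samples. TF had 1 to 26 counts per HEK293 library, and shares exon bases with INHCAP (191) and SRPRB (112), whose part in these counts was not tested, and without the block the difference of 1.80 missed the threshold (adjusted p = 0.107), with a range over the other alternatives of 1.33 to 2.75.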

How the results depend on the processing

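The numbers of increased and decreased members stayed at 10 and 0 under every alternative but library size alone, with log2 fold changes of 0.43 at least. Library size alone gave 1734 increased and 15830 decreased genes, 3 and 2 members, and a members' median of −0.032, and ALB (−0.32), AFP (−0.61), TF (−0.0068), FGA (−0.43), FGB (−0.21) and FGG (−0.057) turned. Increased and decreased genes were then 2 and 12 in clotting, 1 and 12 in complement, 11 and 5 in carriers and inhibitors, 8 and 17 in ER entry, 1 and 19 in coats. Over all genes tested, 8.62% were increased and 78.7% decreased on that scale. The members' median was 1.01 with at least 10 counts in every sample and 1.04 with TMM over protein-coding genes, which gave 14 and 13 decreased coat genes. Leaving out a sample gave medians of 1.07 to 1.32 (lowest without nonirradiated replicate 1), 1 to 2 decreased clotting genes, and 8 to 13 decreased coat genes, 13 without that replicate.

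Log2 ratios of shares turned with nuclear protein-coding counts as the denominator for ALB (0.20), TF (0.52), FGA (0.094), FGB (0.32), FGG (0.47) and the sum (0.45), and without the most abundant other genes for ALB (0.11), TF (0.42), FGB (0.22), FGG (0.38) and the sum (0.35). Leaving out a sample, they spanned −0.12 to 0.056 for TF, −0.23 to 0.036 for FGG and −0.21 to −0.0057 for the sum. Of the shares within the 10, TF (−0.081) and FGG (−0.12) turned without ALB in the sum, and FGG spanned −0.020 to 0.069 on leaving out a sample. The rho with length was −0.39 with the MANE Select transcript. The cause of these moves was not tested, other than that a scaling shifts all genes alike.

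In HepG2 the replicate block changed no call of a member (median 1.29), and the numbers did not pair those samples. In HEK293 alone the replicate block, added after seeing the data, moved TF from −0.60 to −0.67, past no threshold. For TF against HEK293 the replicate block gave 1.88, and leaving out a sample 1.33 to 2.75, past the threshold without nonirradiated HEK293 replicate 1 (2.24). Shares and ratios of 3 against 3 samples cannot pass 0.05, and counts of TF in HEK293 were too few for a narrow estimate.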

Other observations

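The apolipoproteins among the hepatocyte markers, singled out after their values were seen, moved in opposite directions. APOA1 and APOA2, the main proteins of high density lipoprotein, went from 1172 to 2708 and from 1628 to 3211 mean CPM without TMM, and APOC3, an inhibitor of lipoprotein lipase, from 79.7 to 170. Their log2 fold changes with TMM were 2.52 (SE 0.13) for APOA1, 2.29 (SE 0.12) for APOA2 and 2.40 (SE 0.08) for APOC3, above those of all 10 members. APOB fell from 25849 to 4562 mean CPM, a log2 fold change of −1.20 (SE 0.12) with TMM. All 4 were past the threshold (edgeR, adjusted p at most 1.5e-05).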
